A study of Mus musculus with 8 samples.

Results

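The matrix proteases and inhibitors described here are 10 genes chosen by name: the matrix metalloproteinases Mmp2, Mmp3, Mmp9, Mmp13 and Mmp14, the tissue inhibitors Timp1, Timp2 and Timp3, and the urokinase gene Plau with its receptor gene Plaur. All 10 were found among the 54532 genes counted in 4T1 cells, a mouse triple-negative breast cancer line from a spontaneous mammary tumor of a BALB/c mouse. Poly(A) RNA was sequenced from 4 groups with 2 libraries each, 8 libraries in all, and the design text calls the replicates biologically independent. All cells carried a stably integrated shRNA vector and grew in RPMI-1640 with 10% serum under 6 µg/ml puromycin, the controls with a scramble shRNA and the others with a single shRNA sequence against MCT-1 (shMCT-1), a translation and cell cycle regulator encoded by Mcts1. Each background was given either anti-IL-6R, an antibody that keeps interleukin-6 from its receptor, at 100 ng/ml for 48 h, or IgG, which makes the groups scramble + IgG and shMCT-1 + IgG without the antibody, and scramble + anti-IL-6R and shMCT-1 + anti-IL-6R with it. Whether each line was a clone or a pool of transfected cells is not given in the sources used here, so an effect of shMCT-1 and a difference between the 2 established lines cannot be told apart.

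Matrix metalloproteinases are zinc proteases that are made as inactive proenzymes and cleave collagens, gelatin, laminin and other proteins around the cell. TIMP proteins bind their active site in a complex of equal parts, and TIMP-2 in such a complex also brings pro-MMP-2 to MT1-MMP, the product of Mmp14, which activates it. Urokinase, held at the cell surface by its receptor, turns plasminogen into plasmin, which degrades fibrin and activates several proenzymes, among them pro-MMP-3. In tumors these enzymes are studied for their part in invasion, and much of the supply can come from stromal cells, which are not present in a pure culture.

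The promoters of Mmp3, Mmp13 and Plaur are shown because each holds the letters TGANTCA, the core site of the AP-1 transcription factors, and that of Timp1 is shown as a promoter without them. The 120 bases before the annotated start are printed 5′ to 3′ from RefSeq on GRCm38.p6, all on the plus strand, at chr9:7445702-7445821 for Mmp3, chr9:7272394-7272513 for Mmp13, chr7:24462363-24462482 for Plaur and chrX:20870046-20870165 for Timp1. Capitals mark the AP-1 letters.
Mmp3: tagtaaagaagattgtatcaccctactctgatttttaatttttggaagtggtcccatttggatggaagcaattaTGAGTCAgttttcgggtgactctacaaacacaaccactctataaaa
Mmp13: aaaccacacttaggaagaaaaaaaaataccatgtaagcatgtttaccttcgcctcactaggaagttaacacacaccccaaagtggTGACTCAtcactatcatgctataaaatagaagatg
Plaur: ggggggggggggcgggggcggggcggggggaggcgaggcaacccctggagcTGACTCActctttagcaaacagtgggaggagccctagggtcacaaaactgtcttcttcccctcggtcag
Timp1: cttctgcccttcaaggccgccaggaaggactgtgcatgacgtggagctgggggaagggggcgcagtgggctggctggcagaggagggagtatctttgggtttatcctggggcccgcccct
The first base of the match lay 46 bases before the start in Mmp3, 35 bases in Mmp13 and 69 bases in Plaur. Of the 10 genes, 7 had an entry in the promoter table (all but Mmp2, Mmp9 and Plau), and 3 of those 7 held TGANTCA on either strand within 250 bases before to 50 bases after the start, against 7.81% of 32851 promoters of the same length. The TATA letters TATAAA stood in Mmp3 and Mmp13 (13.6% of all promoters). The STAT letters TTCNNNGAA stood in none of the 7 (8.3% of all promoters). A match of letters is a description of these windows and not a measured binding site. Only the letters given were searched, so a promoter without them can hold variants, such as tgagtaa after the start of Timp1.

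Levels are given in CPM, counts of a gene per 1000000 counts of its library. The totals were 24100084 to 33063570 counts in the scramble libraries and 19839299 to 23448587 in the shMCT-1 libraries, so that 1 CPM stood for 19.8 to 33.1 counts. Mcts1, the target of the shRNA, stood at 15.4 and 11.8 CPM in scramble + IgG, 12.8 and 13.5 CPM in scramble + anti-IL-6R, 6.32 and 6.18 CPM in shMCT-1 + IgG and 6.70 and 4.92 CPM in shMCT-1 + anti-IL-6R. All 4 shMCT-1 libraries were below all 4 scramble libraries, and the log2 fold change was -1.08 within IgG (SE 0.17, adjusted p = 0.000676 by edgeR's quasi-likelihood test) and -1.13 within anti-IL-6R (SE 0.17, adjusted p = 0.000557 by the same test). Here and below the test covered 12704 genes, those above 1 CPM in 2 or more libraries, and "called" means an adjusted p under 0.05.

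Markers were read to check the labelled cell type. Of 8 mammary epithelial markers, 7 had a mean of at least 1 CPM and Krt5 was listed at 0 in every library. Their summed level was 2057 to 2199 CPM in the scramble libraries and 2649 to 2859.98 CPM in the shMCT-1 libraries, and single markers went separate ways. Krt19 stood at 16.5 to 19.5 CPM against 0.384 to 0.774 CPM in shMCT-1, and Epcam at 3.75 to 4.93 CPM against 49.4 to 54.5 CPM. Among 7 fibroblast markers only Pdgfra had a mean of at least 1 CPM over all 8 libraries, and Lum was at 0. Col1a1 stood at 0.249 to 0.484 CPM in scramble and 1.07 to 1.66 CPM in shMCT-1. The sum of the 7 was 15.3 to 17.3 CPM in scramble and 12.7 to 16.3 CPM in shMCT-1. The 7 macrophage and leukocyte markers summed to 18.4 to 22.2 CPM in scramble and 22.8 to 26.9 CPM in shMCT-1, nearly all of it from Cd14 and Cd68, with Adgre1 at 0 and Ptprc at no more than 0.137 CPM. The 5 endothelial markers summed to at most 0.332 CPM in scramble and 0.756 to 1.96 CPM in shMCT-1. The part of these marker differences in the results on proteases was not tested. In bulk RNA a smaller share of expressing cells and less RNA per cell cannot be told apart.

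In shMCT-1 the protease genes moved in both directions. Mmp9, Mmp14, Timp1, Timp2 and Plau rose within IgG and within anti-IL-6R, Mmp3 fell in both, and Plaur passed the test in neither. Mmp13 was called lower within IgG, a call that did not hold under all settings. The largest rise was that of Mmp9, 3.57-fold within IgG and 4.28-fold within anti-IL-6R, and the largest fall that of Mmp3, to a level 2.44-fold and 2.95-fold lower. Mmp2 and Timp3 were below 1 CPM in all 8 libraries, and the other 8 genes were above 1 CPM in all 8. Within IgG, 5 of the 8 tested genes were called higher and 2 lower, where 28.3% and 26.2% of all tested genes were called higher and lower. Within anti-IL-6R, 5 were called higher and 1 lower, where the shares over all genes were 26.9% and 27.3%. The median log2 fold change of the 8 genes was 0.56 and 0.57, beside 0.01 in both comparisons over all tested genes. With 4 shMCT-1 libraries set against 4 scramble libraries, 5 of the 8 genes did not overlap and were higher (29.9% of all tested genes) and 2 did not overlap and were lower (34.2%). The calls of single proteases are to be read beside these shares, since the 2 backgrounds differed in a large part of all genes.

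**Figure D1:**
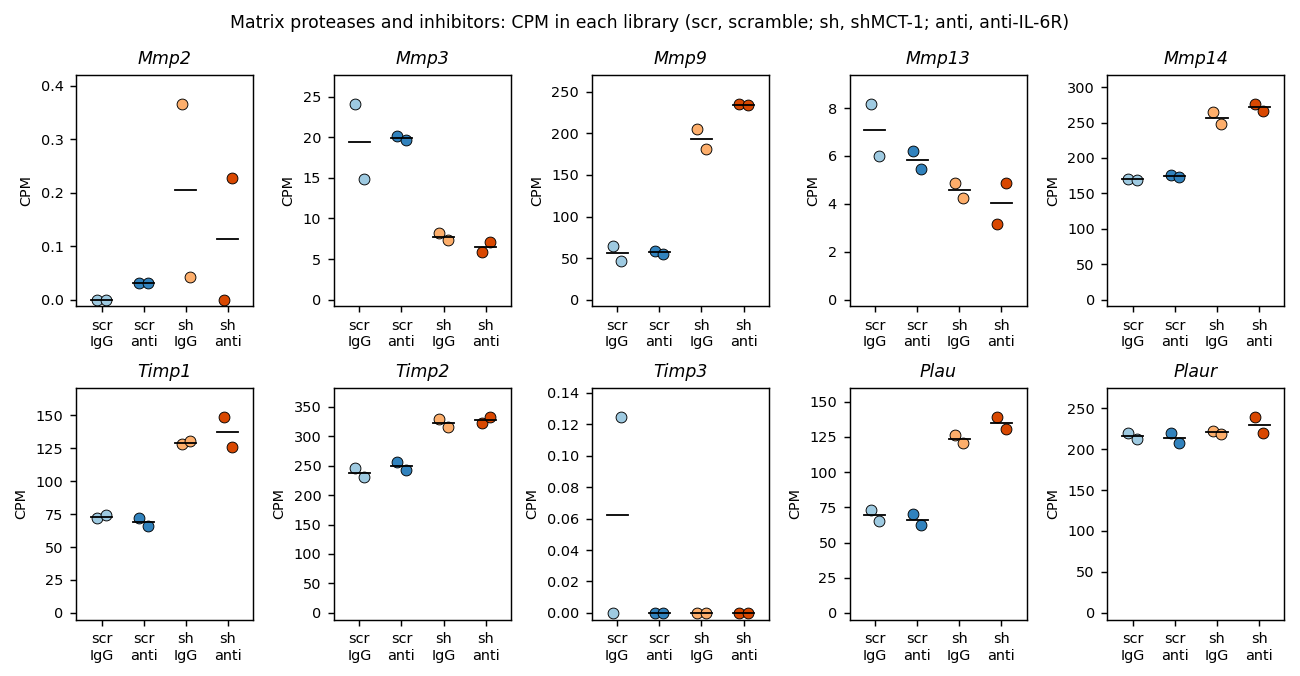
Each panel plots 1 gene, with CPM on a linear axis from 0 and the 4 groups side by side (scr, scramble; sh, shMCT-1; anti, anti-IL-6R); points are single libraries and bars are means of 2 libraries. The 4 shMCT-1 libraries sit above the 4 scramble libraries for Mmp9, Mmp14, Timp1, Timp2 and Plau and below them for Mmp3 and Mmp13, while Mmp2 and Timp3 stay under 1 CPM on axes of their own.

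Mmp9 (ENSMUSG00000017737) encodes gelatinase B, which cleaves denatured collagen and the collagen of basement membranes, and lies on chromosome 2 of GRCm38 from 164940780 to 164955850. It stood at 64.7 and 46.6 CPM in scramble + IgG, 59.1 and 55.0 CPM in scramble + anti-IL-6R, 205 and 181 CPM in shMCT-1 + IgG, and 235 and 234 CPM in shMCT-1 + anti-IL-6R. The lowest shMCT-1 library was above the highest scramble library by a wide margin. On the log2 scale the change was 1.84 within IgG (SE 0.14, adjusted p = 9.43e-06 by edgeR) and 2.10 within anti-IL-6R (SE 0.14, adjusted p = 4.06e-06 by edgeR). Mmp2, the gene of the other gelatinase on chromosome 8 from 92827291 to 92853420, was close to absent from these libraries. Its counts were 0 and 0 in scramble + IgG, 1 and 1 in scramble + anti-IL-6R, 8 and 1 in shMCT-1 + IgG and 0 and 5 in shMCT-1 + anti-IL-6R, with a highest level of 0.366 CPM. It was too low to enter the test, and without a filter on low counts it was not called within IgG (adjusted p = 0.0508 by edgeR) or within anti-IL-6R (adjusted p = 0.514 by edgeR). Of the 2 gelatinase genes, Mmp9 alone was thus above 1 CPM in this culture.

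Mmp14 (ENSMUSG00000000957) encodes the membrane-anchored MT1-MMP, which cleaves fibrillar collagen at the cell surface, and lies on chromosome 14 from 54431612 to 54445364. Its level was 171 and 169 CPM in scramble + IgG, 176 and 174 CPM in scramble + anti-IL-6R, 266 and 249 CPM in shMCT-1 + IgG, and 276 and 267 CPM in shMCT-1 + anti-IL-6R. Replicates lay close together, and the backgrounds did not overlap. The change was 1.56-fold within IgG (log2 0.64, SE 0.079, adjusted p = 0.000172 by edgeR) and 1.62-fold within anti-IL-6R (log2 0.69, SE 0.079, adjusted p = 0.000103 by edgeR).

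Mmp3 (ENSMUSG00000043613) encodes stromelysin-1, a protease of broad range that also activates other proenzymes, and lies on chromosome 9 from 7445822 to 7455975. It went the other way from Mmp9. Its level was 24.1 and 14.8 CPM in scramble + IgG, 20.1 and 19.7 CPM in scramble + anti-IL-6R, 8.15 and 7.34 CPM in shMCT-1 + IgG, and 5.85 and 7.10 CPM in shMCT-1 + anti-IL-6R. The second scramble + IgG library was lower than the other 3 scramble libraries, and still above every shMCT-1 library. The log2 fold change was -1.29 within IgG (SE 0.20, adjusted p = 0.000595 by edgeR) and -1.56 within anti-IL-6R (SE 0.21, adjusted p = 0.00023 by edgeR). Mmp3 was the 1 member whose counts were not whole, in 5 of 8 libraries, which counting by RSEM gives where reads are divided between similar genes.

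Mmp13 (ENSMUSG00000050578), the gene of collagenase-3 on chromosome 9 from 7272514 to 7283331, was the lowest of the tested members, also per exon length. It stood at 8.17 and 6.02 CPM in scramble + IgG, 6.21 and 5.44 CPM in scramble + anti-IL-6R, 4.85 and 4.26 CPM in shMCT-1 + IgG, and 3.18 and 4.87 CPM in shMCT-1 + anti-IL-6R. The backgrounds did not overlap, but the gap between 5.44 and 4.87 CPM was smaller than the spread within either background. The log2 fold change within IgG was -0.60 (SE 0.23, adjusted p = 0.0483 by edgeR), just past the threshold. The call was lost without the first scramble + IgG library (log2 -0.38, adjusted p = 0.251 by edgeR), without either shMCT-1 + IgG library (log2 -0.69 and -0.51, adjusted p = 0.0993 and 0.201) and without either scramble + anti-IL-6R library, which only enters through the shared spread (log2 -0.60, adjusted p = 0.0673 and 0.0657). Within anti-IL-6R it was -0.47 (SE 0.23, 95% interval -0.99 to 0.05, adjusted p = 0.11 by edgeR), and without the second shMCT-1 + anti-IL-6R library it was -0.80 (adjusted p = 0.0288 by edgeR).

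Mmp3 and Mmp13 belong to a run of 10 metalloproteinase genes on chromosome 9, which spans 427 kb and in which their starts are 173 kb apart. Of the 10 genes, 4 passed the filter on low counts, and these did not share a direction. Mmp1b was above 1 CPM in the scramble libraries only, so the filter favoured a fall and its calls are no support for a direction. Mmp1b, a gene of the interstitial collagenase type between Mmp13 and Mmp3, stood at 1.78 to 2.39 CPM in scramble and 0.554 to 0.905 CPM in shMCT-1, and fell within IgG (log2 -1.44, SE 0.34, adjusted p = 0.00518 by edgeR) and within anti-IL-6R (log2 -1.64, SE 0.33, adjusted p = 0.00233 by edgeR). Mmp10, the gene of stromelysin-2 and close kin of Mmp3, lies on the other side of Mmp3 from 7502352 to 7510240. Mmp10 stood at 2.54 to 4.38 CPM in scramble and 9.42 to 13.2 CPM in shMCT-1, and it rose within IgG (log2 1.69, SE 0.24, adjusted p = 0.000329 by edgeR) and within anti-IL-6R (log2 1.83, SE 0.23, adjusted p = 0.000192 by edgeR). These neighbours of the stromelysin type thus differed in sign in the same libraries, Mmp3 lower and Mmp10 higher in shMCT-1. Mmp10 counts were not whole in the same libraries as those of Mmp3, with 120.64 beside 663.36 counts in the first scramble + IgG library. The 2 estimates may therefore share reads, and the effect of such sharing was not tested.

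Timp1 (ENSMUSG00000001131), on chromosome X from 20870166 to 20874735, encodes the inhibitor that binds MMP-9 also as a proenzyme. Its level was 71.8 and 74.5 CPM in scramble + IgG, 71.9 and 65.9 CPM in scramble + anti-IL-6R, 128 and 130.3 CPM in shMCT-1 + IgG, and 149 and 126 CPM in shMCT-1 + anti-IL-6R. Each shMCT-1 library was well above each scramble library. The change was 1.82-fold within IgG (log2 0.86, SE 0.10, adjusted p = 0.000126 by edgeR) and 2.07-fold within anti-IL-6R (log2 1.05, SE 0.10, adjusted p = 4.04e-05 by edgeR). Timp1 overlaps Syn1 on the opposite strand, which stood at 0.655 to 3.07 CPM, and how strand entered the counting is not given in the sources used here.

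Timp2 (ENSMUSG00000017466), on chromosome 11 from 118301069 to 118355740, encodes the inhibitor that links MT1-MMP to pro-MMP-2. It stood at 246 and 229.9 CPM in scramble + IgG, 257 and 242 CPM in scramble + anti-IL-6R, 329 and 315 CPM in shMCT-1 + IgG, and 322 and 332 CPM in shMCT-1 + anti-IL-6R. The backgrounds did not overlap, with the smallest fold among the 5 genes that rose: 1.40 within IgG (log2 0.48, SE 0.08, adjusted p = 0.000829 by edgeR) and 1.36 within anti-IL-6R (log2 0.45, SE 0.08, adjusted p = 0.00126 by edgeR). The first intron of Timp2 holds Cep295nl on the same strand, at 3.28 to 7.26 CPM. Timp3 on chromosome 10 from 86300372 to 86349506, which encodes the inhibitor that is bound to the matrix, had 3 counts in the second scramble + IgG library (0.124 CPM) and 0 in the other 7. A count of 0 allows up to 3 counts, or 0.0907 to 0.151 CPM in these libraries, by counting error only.

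Plau (ENSMUSG00000021822), the urokinase gene on chromosome 14 from 20836660 to 20843385, stood at 73.2 and 65.5 CPM in scramble + IgG, 70.0 and 62.5 CPM in scramble + anti-IL-6R, 127 and 120.3 CPM in shMCT-1 + IgG, and 139 and 131 CPM in shMCT-1 + anti-IL-6R. All shMCT-1 libraries were above all scramble libraries. The change was 1.83-fold within IgG (log2 0.88, SE 0.095, adjusted p = 8.03e-05 by edgeR) and 2.12-fold within anti-IL-6R (log2 1.08, SE 0.095, adjusted p = 2.35e-05 by edgeR). Plaur (ENSMUSG00000046223), on chromosome 7 from 24462484 to 24475968, encodes the receptor that anchors urokinase to the membrane. It stood at 219 and 213 CPM in scramble + IgG, 219.6 and 208 CPM in scramble + anti-IL-6R, 222 and 219 CPM in shMCT-1 + IgG, and 239 and 219.5 CPM in shMCT-1 + anti-IL-6R. These ranges overlapped. The log2 fold change was 0.07 within IgG (95% interval -0.11 to 0.26, adjusted p = 0.483 by edgeR) and 0.16 within anti-IL-6R (95% interval -0.03 to 0.34, adjusted p = 0.131 by edgeR), so that a change beyond 0.34 on the log2 scale lay outside both intervals. Without the second shMCT-1 + anti-IL-6R library the value within anti-IL-6R was 0.24 (adjusted p = 0.0466 by edgeR).

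**Figure D2:**
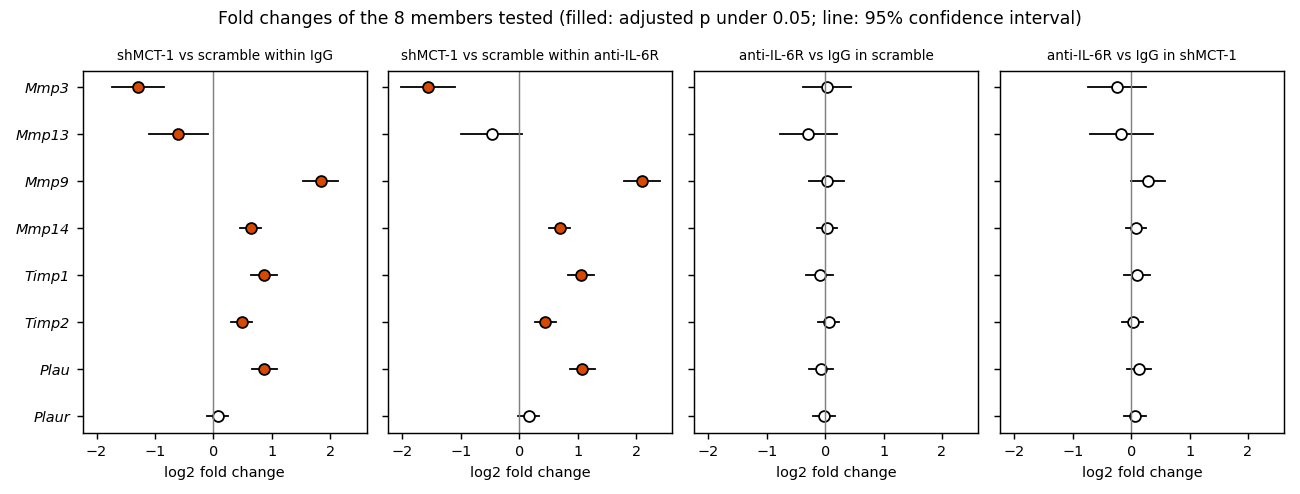
Log2 fold changes (horizontal axis) of the 8 tested genes are drawn in 4 panels, 1 for each comparison, with points for the estimate, lines for its 95% confidence interval and filled points for an adjusted p under 0.05. Filled points appear for 7 genes within IgG and 6 within anti-IL-6R, from -1.56 for Mmp3 to 2.10 for Mmp9, and for 0 genes in either comparison of anti-IL-6R with IgG.

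The question of whether anti-IL-6R moved these genes was put in each background. Whether the labelled 100 ng/ml blocked the receptor in these cells was not checked here. In scramble cells 0 of the 8 genes were called, with log2 fold changes from -0.29 (Mmp13) to 0.06 (Timp2), and 0% of all 12704 genes were called. In shMCT-1 cells 0 of the 8 were called, with values from -0.25 (Mmp3) to 0.29 (Mmp9), and again 0% of all genes. At an unadjusted p under 0.05, 0 members passed in either background, where 166 and 505 of all 12704 genes did. With so few genes passing, 0 of 8 does not set the members apart. DESeq2 called 0 genes in scramble and 11 in shMCT-1, and no member in either. The lowest unadjusted p was that of Mmp9 in shMCT-1 cells, where 235 and 234 CPM under anti-IL-6R lay above 205 and 181 CPM under IgG (log2 0.29, SE 0.13, 95% interval -0.0036 to 0.58, unadjusted p = 0.0524 and adjusted p = 1.00 by edgeR). That difference did not pass the test, and a change of Mmp9 of up to 0.58 on the log2 scale lay within the interval.

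The interaction asks whether the effect of shMCT-1 differed between the treatments. It was called for 0 of the 8 genes and 0% of all genes by edgeR, with member values from -0.27 (Mmp3) to 0.26 (Mmp9). An unadjusted p under 0.05 was reached by 315 of all 12704 genes and 0 members, and DESeq2 called 6 genes and no member. The larger folds within anti-IL-6R for Mmp3, Mmp9, Timp1 and Plau were therefore not shown to differ from those within IgG. The 2 comparisons share no library, since each has its own controls.

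To set the genes side by side, levels in CPM were divided by the length of the annotated exons, which gives CPM per kb. On this scale Plaur (82.5 ± 1.80, SD, n = 2) and Timp1 (82.4 ± 2.18) led in scramble + IgG. Timp2 followed at 61.0 ± 2.83, then Plau at 29.3 ± 2.31 and Mmp14 at 28.5 ± 0.161, and then Mmp9 at 15.7 ± 3.63, Mmp3 at 10.8 ± 3.65 and Mmp13 at 2.65 ± 0.571. In shMCT-1 + IgG the order was led by Timp1 at 146 ± 1.48, ahead of Plaur at 84.3 ± 0.867 and Timp2 at 82.8 ± 2.56. Mmp9 at 54.5 ± 4.80 and Plau at 52.2 ± 1.88 now stood above Mmp14 at 43.1 ± 2.01, with Mmp3 at 4.30 ± 0.321 and Mmp13 at 1.71 ± 0.155. Part of this order rested on the length used, above all for Mmp14, whose annotated exons cover 5.96 kb and whose longest transcript has 3.24 kb. Divided by the longest transcript, Mmp14 stood at 52.5 ± 0.296 in scramble + IgG, above Plau at 29.6 ± 2.33, and Plaur at 107.5 ± 2.34 was above Timp1 at 82.8 ± 2.19. In shMCT-1 + IgG Mmp14 was then at 79.4 ± 3.69, above Mmp9 at 60.8 ± 5.35 and Plau at 52.7 ± 1.90. Mmp13 was the lowest of the tested members and Timp1 the highest in shMCT-1 + IgG by either length.

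In scramble cells the summed level of the metalloproteinase members was 57.7 ± 8.01 under IgG and 58.7 ± 1.39 under anti-IL-6R (same scale, SD, n = 2). In shMCT-1 cells it was 103.7 ± 7.35 and 117 ± 0.481. Other tested metalloproteinase genes, such as Mmp10, were not part of this sum. Its makeup differed between the backgrounds. Mmp14 gave 49.9% and 49.97% of the sum in the scramble groups and 41.6% and 38.9% in the shMCT-1 groups, while Mmp9 gave 27.1% and 27.5% and then 52.5% and 56.7%. Mmp3 gave 18.5% and 18.8% in scramble, and 4.14% and 3.07% in shMCT-1. By the longest transcript Mmp14 gave the largest part in all 4 groups, 63.2% and 63.4% in scramble and 54.3% and 51.5% in shMCT-1, and Mmp9 gave 20.8% and 21.1% in scramble and 41.5% and 45.4% in shMCT-1. The share of Mmp9 was thus higher in shMCT-1 by either length, and which gene led in shMCT-1 was set by the length. Mmp9 and Mmp3 thus stood at a ratio of 1.48 ± 0.165 and 1.46 ± 0.0526 in the scramble groups and of 12.7 ± 0.168 and 18.6 ± 2.64 in the shMCT-1 groups.

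**Figure D3:**
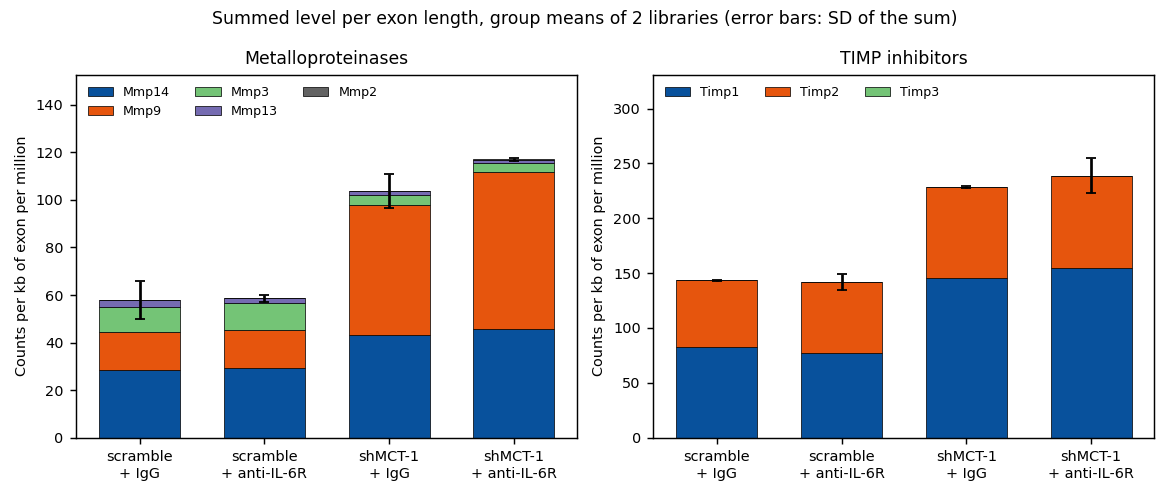
Stacked bars give the level per exon length (linear axis from 0) as means of 2 libraries in the 4 groups. The metalloproteinase members are on the left and the TIMP members on the right, with error bars for the SD of the sum. Both sums are higher in shMCT-1, from 57.7 to 103.7 and from 143 to 228 under IgG, and the Mmp9 share of the left bars goes from 27.1% to 52.5% (20.8% to 41.5% by the longest transcript, where Mmp14 stays the largest part).

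The summed level of the TIMP genes was 143 ± 0.642 and 142 ± 7.37 in the scramble groups under IgG and anti-IL-6R, and 228 ± 1.08 and 239 ± 15.9 in the shMCT-1 groups. The ratio of the summed TIMP genes to the summed metalloproteinases was 2.51 ± 0.337, 2.41 ± 0.0685, 2.21 ± 0.146 and 2.04 ± 0.128 in the order of the groups above, and single libraries of the 2 backgrounds overlapped (2.27 in scramble, 2.31 in shMCT-1). The single pairs that follow did not overlap between the backgrounds, though the group means of Timp2 to Mmp14 differed about as little as the summed ratio. Of all tested genes, 29.9% did not overlap and were higher in shMCT-1, and 34.2% did not overlap and were lower. No such share was taken over ratios of other gene pairs, so the lack of overlap does not set these pairs apart. Timp1 to Mmp9 was 4.42 to 6.38 over the scramble libraries and 2.15 to 2.87 over the shMCT-1 libraries. Timp2 to Mmp14 was 2.08 to 2.24 over the scramble libraries and 1.78 to 1.94 over the shMCT-1 libraries, and by the longest transcript 1.185 to 1.276 and 1.02 to 1.11. Plau to its receptor gene Plaur was 0.333 to 0.369 in scramble and 0.608 to 0.658 in shMCT-1. No test was made of these ratios, which describe transcripts and not protein or enzyme activity.

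Other genes of the same pathways were read as 7 lists with 90 genes, of which 56 passed the filter. Within IgG 32 of the 56 were higher in shMCT-1 and 10 lower, and within anti-IL-6R 33 were higher and 10 lower, beside 28.3% and 26.2%, and 26.9% and 27.3%, of all tested genes. These counts, and those of the single lists below, include genes that passed the filter through 1 background only. They were Serpinb2, Batf3 and Ctso through shMCT-1 and Mmp1b through scramble, and their calls are no support for a direction. Anti-IL-6R moved 0 of the 56 genes past the threshold in either background by edgeR. Among the 18 other metalloproteinase genes 5 were tested, 3 higher and 2 lower within IgG and 2 higher and 1 lower within anti-IL-6R (median log2 0.39 and 0.16), with Mmp15, a second membrane-anchored enzyme, higher at log2 1.28 and 1.02. The call of Mmp15 was lost within IgG without the second shMCT-1 + IgG library (log2 0.91) and within anti-IL-6R without the second library of scramble (log2 0.81) or of shMCT-1 (log2 0.99).

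Of 8 other inhibitors and regulators 5 were tested, and 4 were higher and 0 lower in both comparisons (median log2 0.63 and 0.46). Lrp1, the endocytic receptor that clears MMP-9, TIMP-1 and urokinase complexes, stood at 25.8 to 33.2 CPM in scramble and 98.0 to 133 CPM in shMCT-1, and rose within IgG (log2 2.09, adjusted p = 6.78e-06 by edgeR) and within anti-IL-6R (log2 1.95, adjusted p = 8.6e-06 by edgeR). Bsg, which encodes the surface inducer of metalloproteinases basigin, rose by 0.80 on the log2 scale in both comparisons. Furin, the proprotein convertase that activates pro-MT1-MMP, was higher by 0.32 and 0.30, a call lost without the first shMCT-1 + IgG library (log2 0.29) and without either scramble + anti-IL-6R library (log2 0.32 and 0.28). Reck, a membrane-anchored inhibitor, stood at 1.72 to 2.37 CPM in scramble and 1.92 to 3.28 CPM in shMCT-1 and was not called (log2 0.63 and 0.45, adjusted p = 0.0734 and 0.193 by edgeR).

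The plasminogen activator list had 12 genes and 7 tested, of which 5 were higher and 1 lower in both comparisons (median log2 0.77 and 0.59). Plat, which encodes the tissue-type activator, stood at 1.69 to 2.07 CPM in scramble and 5.95 to 7.69 CPM in shMCT-1, with log2 fold changes of 1.85 and 1.87. Serpinb2, the gene of PAI-2, had 0 to 2 counts in each scramble library and 5.65 to 7.47 CPM in the shMCT-1 libraries. It is counted among the higher genes and passed the filter only through shMCT-1. Anxa2, which encodes a plasminogen-binding annexin, was the 1 gene of the list that fell (log2 -0.77 and -0.66), with 1692 to 1795 CPM in scramble and 948 to 1109 CPM in shMCT-1.

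Among the 12 tested ADAM and ADAMTS genes, 3 were higher and 3 lower within IgG and 4 higher and 3 lower within anti-IL-6R (median log2 0.19 and 0.04). Adam19, at 2.45 to 2.69 CPM in scramble and 20.8 to 26.3 CPM in shMCT-1, rose most (log2 3.05 and 3.35), followed by Adamts4, which encodes an aggrecanase (log2 1.97 and 1.80). Adamts1, another protease of proteoglycans, fell (log2 -1.45 and -1.32), as did Adam17, the shedding enzyme of TNF and of the IL-6 receptor itself (log2 -0.59 and -0.63, 114 to 127 CPM against 70.0 to 79.0 CPM). Of 12 tested cathepsin and cystatin genes, 9 were higher and 1 lower within IgG and 10 higher and 2 lower within anti-IL-6R (median log2 0.75 and 0.65), with Cst6 (log2 1.52 and 1.48) and Ctsc (log2 0.96 and 1.11) higher and Ctsl lower (log2 -0.42 and -0.41, the first at -0.36 and not called without the first shMCT-1 + IgG library). Of 7 tested membrane serine proteases and their inhibitors, 5 were higher and 0 lower in both (median log2 0.65 and 0.80), led by Spint1, an inhibitor of matriptase (log2 1.88 and 1.76), and by Prss8, the gene of prostasin (log2 1.24 and 1.14).

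The AP-1 subunits, whose core letters stood in the promoters of Mmp3, Mmp13 and Plaur, did not move as 1 group. Of 8 tested genes 3 were higher and 3 lower in both comparisons (median log2 0.32 and 0.09). Batf3, counted among the higher genes, had at most 1 count in any scramble library. It passed the filter only through shMCT-1, so its call is no support for a rise. Fosl2, at 134 to 162 CPM in scramble and 59.4 to 71.9 CPM in shMCT-1, fell (log2 -1.03 and -1.19), as did Jun, at 291 to 352 CPM and 155 to 204 CPM (log2 -0.77 and -0.73). Junb (log2 0.49 and 0.64) and Jund (log2 0.55 and 0.63) rose. Of the 3 members with the AP-1 letters, Mmp3 was called lower in both comparisons and Plaur was called in neither. Mmp13 was called lower within IgG, a call that did not hold under all settings, and its interaction was not called. No binding was measured in these data.

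**Figure D4:**
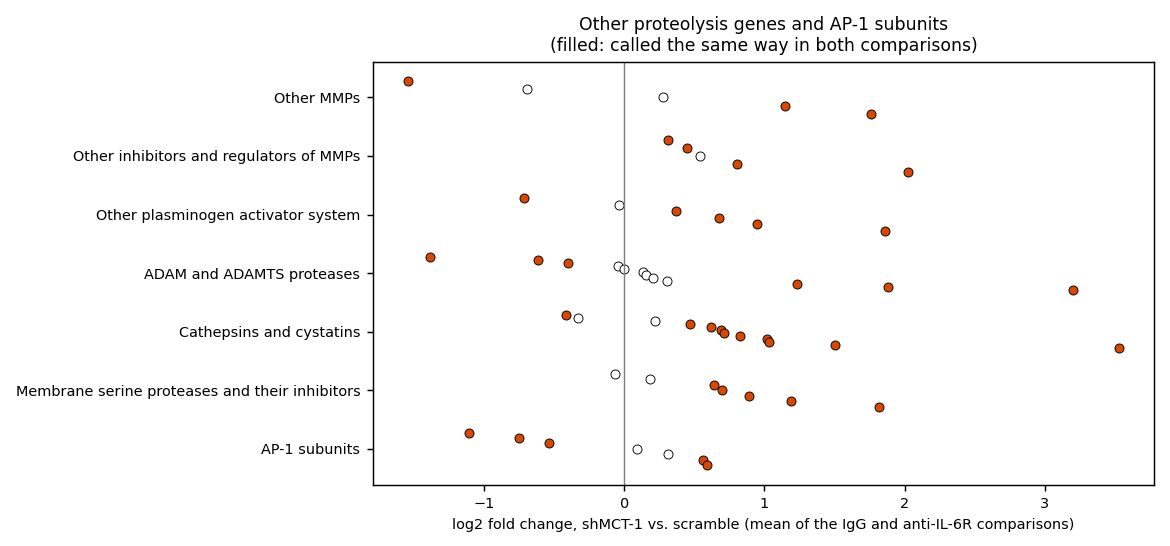
Each point is 1 of 54 tested genes of the 7 lists (rows), placed by the mean of its log2 fold changes within IgG and within anti-IL-6R (horizontal axis), filled where called the same way in both; Serpinb2 and Batf3, with 3 counts or fewer in every scramble library, are not drawn. Filled points lie right of 0 in the rows of regulators and of membrane serine proteases, and on both sides in the other 5 rows. Of the genes drawn, Mmp1b passed the filter only through scramble and Ctso only through shMCT-1.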

How the data were processed

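Per the labels and the study's methods, poly(A) RNA was sequenced in paired-end reads, trimmed with cutadapt 1.18, aligned to mm10 with STAR 2.7.0d and counted with RSEM on GENCODE M19. The authors deposited these expected counts of 54532 genes per library without normalization. Of values above 0, 29.6% were not whole, and all were rounded here. Use of UMIs or strand is not given in the sources used here. Symbols and positions come from GENCODE M21 on GRCm38, which holds 54409 of the gene identifiers.

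The 4 group means were fitted to all 8 libraries with edgeR 4.0.16 (R 4.3.3, TMM, quasi-likelihood test, genes above 1 CPM in at least 2 libraries, Benjamini-Hochberg). An exact test in edgeR, the tool the study used, was an alternative, and its counts of genes are not those the study reported. Other alternatives were DESeq2 1.42.0, RLE factors, other filters, fewer libraries, the replicate number as a block, unadjusted p-values and leaving out each library. Scaling by library totals was added after seeing the data. p-values rest on 2 libraries a group, and the labels name no batch. Replicate numbers were not taken to pair samples: correlations of replicate deviations were -0.107 to 0.111. No replicates were near-identical (chi-square per gene 4.39 to 28.1). The test was also run on simulated counts in which few genes changed, unlike these data, so that run gives no error rate for them.

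Members and lists were chosen with earlier results of these data known. Named were all members, Mcts1, and in each list up to 2 genes with the strongest rise and up to 2 with the strongest fall, from those called alike in both shMCT-1 comparisons at a mean of at least 1 CPM, plus Reck, Plat, Furin, Bsg, Lrp1 and Mmp10. A further gene named by the rule is not reported here. Batf3 and Ctso were named after their values were seen. Intervals and floors cover counting error only where they come from counts.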

Additional observations from a re-analysis of the deposited data

How the results depend on the processing

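In the shMCT-1 comparisons no member changed sign under any setting run. Within IgG 121 of 128 member values kept their side of the threshold and 7 lost their call, all of Mmp13. Mmp13 was at -0.58 with filterByExpr (adjusted p = 0.0506 by edgeR) and at -0.59 with the replicate block (adjusted p = 0.0586 by edgeR). Where a single library left out cost the call, Mmp13 was at -0.69 to -0.38. Within anti-IL-6R 126 of 128 kept their side, and Mmp13 and Plaur gained a call without the second shMCT-1 + anti-IL-6R library. The number of all genes called within anti-IL-6R, 6894, was 4390 without the second scramble + anti-IL-6R library and 4390 to 7304 over all libraries left out. Of the other named genes 396 of 400 values kept their side in each shMCT-1 comparison. With the replicate block 7035 and 7017 genes and 6 and 6 members were called, and no other member call changed, but 2 pairs cannot show that numbers pair the libraries. For anti-IL-6R in scramble, the 0 genes called became 64 without a filter, 10 by the exact test, 166 unadjusted and 0 to 14 with libraries left out. In shMCT-1 they became 133 without a filter, 14 by the exact test, 11 by DESeq2, 505 unadjusted and 0 to 1 with libraries left out. For the interaction they became 97 without a filter, 6 by DESeq2, 315 unadjusted and 0 to 8 with libraries left out, with no member called in any of these. With libraries left out, values near 0 changed sign: in scramble Mmp3 (-0.27 to 0.40), Mmp9 (-0.17 to 0.27), Plau (-0.16 to 0.010), Plaur (-0.069 to 0.019) and Mcts1 (-0.21 to 0.13), in shMCT-1 Mmp13 (-0.50 to 0.11), Timp1 (-0.024 to 0.22), Timp2 (-0.0042 to 0.057) and Mcts1 (-0.34 to 0.12), and for the interaction Mmp3 (-0.65 to 0.019), Mmp13 (-0.19 to 0.41), Timp2 (-0.081 to 0.011) and Mcts1 (-0.27 to 0.19). With the longest transcript as length, the TIMP to metalloproteinase ratios were 1.77, 1.71, 1.60 and 1.497 in the order of the groups. The causes of these shifts were not tested. Depth limits Mmp2 and Timp3, which had at most 8 counts in a library.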
